A study of Homo sapiens with 2 samples.

Results

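The genes described here regulate apoptosis, the programme by which a cell takes itself apart. They were taken from the probe sets that the platform annotation names with a single symbol starting with CASP and a digit, BCL2, TNFRSF10 or TNFSF10, together with 33 listed symbols, and each gene was represented by the probe set with the highest mean of both arrays. This gave 38 genes of the 14884 named on the array, 12 by symbol start and 26 of the listed ones. They were measured in the established fibrosarcoma line HT1080, of human origin, with 2 Affymetrix Human Gene 2.0 ST arrays, on which several short probes together give 1 value per probe set. One array held total RNA of cells given an shRNA (short hairpin RNA) against cMyc, and the other held RNA of cells given a non-targeting control shRNA. Per the labels' treatment protocol, both were harvested 48 hours after infection with virus that carried the hairpin, whereas the series' design text speaks of transfection, so the way of delivery is not settled. The hairpin sequences and the number of cultures behind each array are not stated in the sources used.

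The annotation did not name all of the pathway. Of the 33 listed symbols, HRK, BIRC3, DIABLO, FAS, RIPK1, AIFM1 and AIFM2 had no named probe set and were not analysed here. Nor were the death ligand TNFSF10 (TRAIL), its receptors TNFRSF10A to TNFRSF10D, the caspases apart from CASP12, or BCL2L2. So no death receptor is among the 38 genes. The CASP symbols stand for CASP12, annotated in RefSeq as a transcribed pseudogene, and CASP8AP2, a protein that binds caspase-8, and the TNFRSF10 symbol stands for TNFRSF10A-DT, a long noncoding RNA transcribed divergently from a TRAIL receptor gene. What the arrays show is therefore mostly the BCL2 family, the inhibitors of apoptosis, the receptor adaptors and a few p53 targets.

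In the mitochondrial route, BH3-only proteins sense stress and either block the anti-apoptotic members of the BCL2 family or activate BAX and BAK1, which make the outer mitochondrial membrane leak. Cytochrome c then assembles with APAF1 into the apoptosome and switches on caspases, which the inhibitor of apoptosis proteins hold back. In the receptor route, ligands such as TRAIL and FAS ligand act through the adaptor FADD, and CFLAR (c-FLIP) limits the activation of caspase-8. MYC is a transcription factor that drives growth and is also known to make cells more prone to apoptosis.

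The regulatory sequences of 4 members are shown because they hold matches to motifs that bear on the 2 transcription programmes in question, MYC and interferon. They are RefSeq windows from 250 bases before to 50 bases after an annotated start (GRCh38.p14), printed 5′ to 3′ on the gene's strand. Capitals mark CACGTG, the E-box to which MYC and its partner MAX bind, in BAX, BID and BBC3. They mark GAAA followed after any 2 bases by GAAA, a form of the interferon-stimulated response element, in BBC3, and AANNGAAA, the core bound by interferon regulatory factors, in either orientation in XAF1. The shorter AANNGAAA was added after the values were seen, and the XAF1 windows held no match to the longer form. XAF1 is chr17:6755796-6756095 on the plus strand, BBC3 chr19:47232618-47232917 on the minus strand, BAX chr19:48954625-48954924 on the plus strand and BID chr22:17773993-17774292 on the minus strand.
XAF1: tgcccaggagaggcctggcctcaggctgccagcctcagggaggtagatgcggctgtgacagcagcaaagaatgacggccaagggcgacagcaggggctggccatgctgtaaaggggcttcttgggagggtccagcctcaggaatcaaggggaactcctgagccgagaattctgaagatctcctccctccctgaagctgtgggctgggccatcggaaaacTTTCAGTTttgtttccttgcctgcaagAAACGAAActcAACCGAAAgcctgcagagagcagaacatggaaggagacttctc
BBC3: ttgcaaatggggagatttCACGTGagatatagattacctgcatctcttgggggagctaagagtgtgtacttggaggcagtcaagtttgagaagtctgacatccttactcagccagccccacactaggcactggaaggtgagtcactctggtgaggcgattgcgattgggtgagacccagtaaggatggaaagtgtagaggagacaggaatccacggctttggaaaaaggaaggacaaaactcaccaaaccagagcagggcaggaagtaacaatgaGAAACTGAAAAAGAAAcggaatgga
BAX: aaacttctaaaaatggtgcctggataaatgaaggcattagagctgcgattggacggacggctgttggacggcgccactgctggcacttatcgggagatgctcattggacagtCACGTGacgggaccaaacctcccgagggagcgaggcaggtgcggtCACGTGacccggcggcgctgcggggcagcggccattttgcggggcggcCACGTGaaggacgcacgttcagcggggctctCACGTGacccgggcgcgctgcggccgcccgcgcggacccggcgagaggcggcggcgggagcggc
BID: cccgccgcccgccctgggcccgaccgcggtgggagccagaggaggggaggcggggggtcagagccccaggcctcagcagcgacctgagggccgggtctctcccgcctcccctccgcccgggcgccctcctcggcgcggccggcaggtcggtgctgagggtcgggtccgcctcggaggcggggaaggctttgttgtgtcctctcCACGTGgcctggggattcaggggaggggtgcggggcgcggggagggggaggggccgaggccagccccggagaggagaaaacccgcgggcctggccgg

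The deposited values are log2 levels, and a difference below is the cMyc shRNA array minus the control array. With 1 array per condition there was no spread between replicates and no test, so genes were counted when they lay 2-fold or more apart, and every difference describes these 2 arrays. The only measured error was technical, from the 416 genes with at least a second measured probe set. The disagreement of the 2 highest probe sets of a gene on the same 2 arrays gave an SD of 0.34 for 1 log2 difference. This technical SD leaves out any error that both probe sets share, and it includes any real difference between the transcripts they read. It is therefore a yardstick of size and not the error between cultures or arrays. A gene counted as measured when its mean of both arrays was 3.70 or more, which is the median level of all probe sets. MYC, the target of the hairpin, read 6.16 on the cMyc shRNA array and 7.09 on the control array, a log2 difference of -0.93, or 1.91-fold lower. This value rests on 1 probe set and falls short of the 2-fold rule, which 4.00% of all measured named genes passed downwards. In bulk RNA, fewer cells of a kind and less RNA per cell cannot be told apart.

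Of the 38 genes, 31 were measured, and all 31 lay above 3.70 on both arrays. Only XAF1 and TP53INP1 were higher by 2-fold or more on the cMyc shRNA array, and 0 members were lower by that much. These 2 genes were 6.45% of the measured members, while 2.01% of the 10258 measured named genes were that much higher and 4.00% that much lower. At 1.5-fold, 6 members were higher (19.4%, against 8.77% of all measured genes) and 1 was lower (3.23%, against 11.9%). The members had a median log2 difference of 0.11 and all measured genes one of -0.01, and 16 members (51.6%) lay within the technical SD of 0, as did 56.5% of all measured genes. Beyond 1.5-fold were XAF1, TP53INP1, BBC3, MCL1, CFLAR and BCL2A1 on the higher side and BOK on the lower side.

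**Figure D1:**
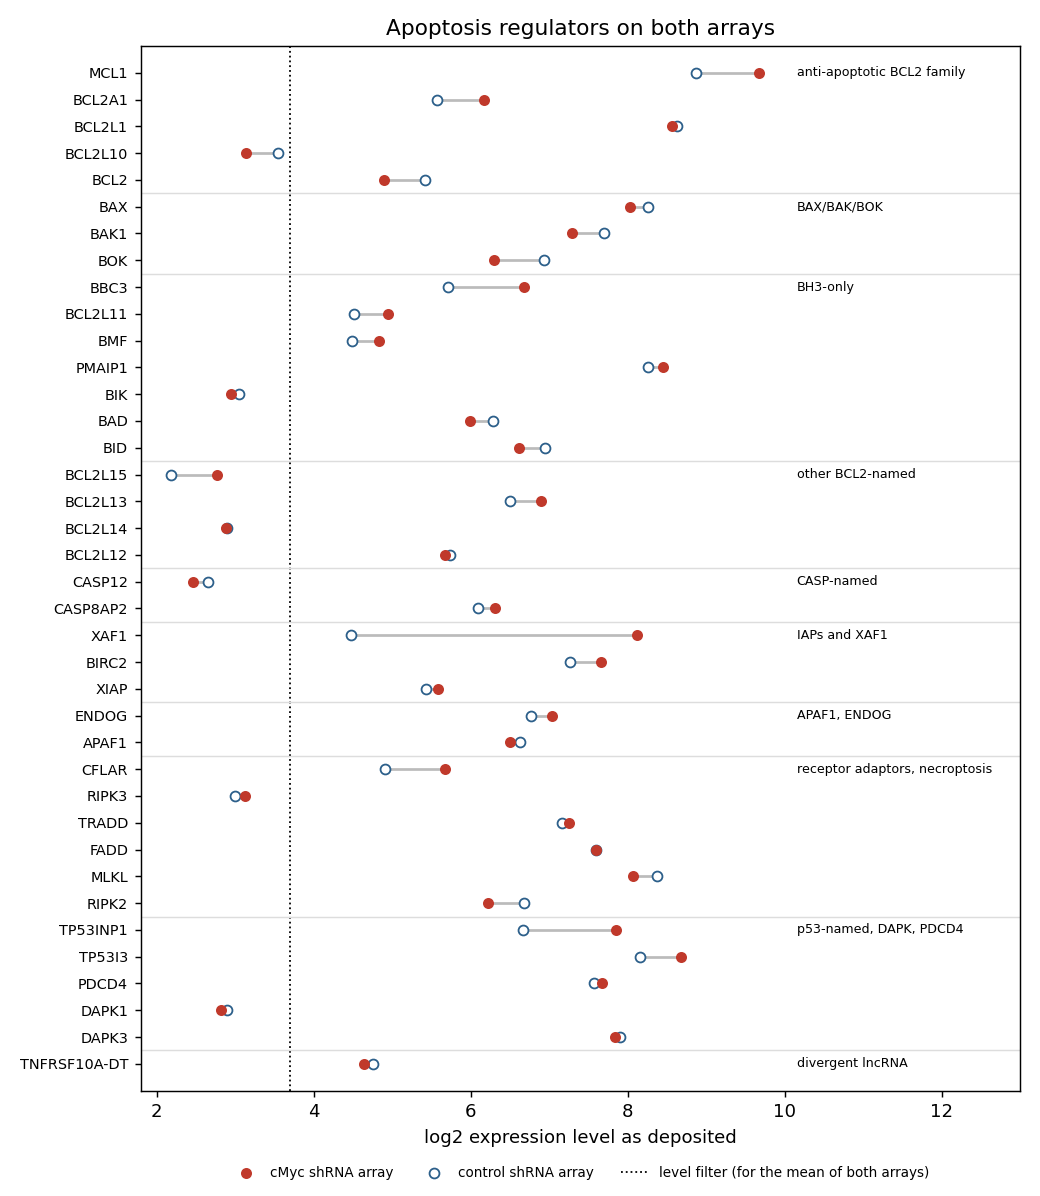
Log2 expression levels as deposited (horizontal axis) of the 38 apoptosis regulators, grouped by role, on the cMyc shRNA array (filled points) and the control shRNA array (open points), with the level filter of 3.70 as a dotted line. The XAF1 points lie far apart, at 8.12 and 4.47, while most other pairs lie close together.

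XAF1, an interferon-inducible protein that antagonises the inhibitor of apoptosis XIAP, was the member farthest from 0. It read 8.12 on the cMyc shRNA array and 4.47 on the control array (probe set 16830202), a difference of 3.65, or 12.6-fold higher. Counting XAF1 itself, 12 of the 10258 measured genes had a difference at least as high. The inhibitors it is set against were far closer on the 2 arrays. XIAP, which binds caspases directly, read 5.58 on the cMyc shRNA array and 5.43 on the control array, a difference of 0.16. BIRC2 (cIAP1), a ubiquitin ligase of TNF receptor signalling, read 7.66 on the cMyc shRNA array and 7.26 on the control array, a difference of 0.40.

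Interferon-stimulated genes that are not apoptosis regulators were high on the same array as XAF1. Of the 28 listed, 20 had a named probe set and all 20 were measured. Of these, 18 were higher by 2-fold or more on the cMyc shRNA array and 0 were lower by that much, with a median of 3.65. Over all measured genes these shares were 2.01% and 4.00%. IFIT1 (6.90) and IFIT2 (5.09) had the highest log2 differences, and IRF7 (-0.02) and IRF1 (0.70) the lowest. The others past 2-fold were IFIT3, IFI44, IFI44L, RSAD2, IFIH1, RIGI, IRF9, ISG15, MX2, DDX60, SAMD9, SAMD9L, USP18, HERC5, TLR3 and BST2. IFIT1 (2.78), IFIT2 (3.63), IFI44L (2.63), IFIH1 (3.45), MX2 (3.57), HERC5 (3.68) and BST2 (2.98) were below the 3.70 filter on the control array. They counted as measured only through the cMyc shRNA array, so the filter favours higher genes here. The count of 18 and the median of 3.65 include them, and the list was chosen with earlier results of these data known. Both values are therefore partly set by selection. The sizes of their differences rest on control values below the filter. The part of the interferon-stimulated genes in the XAF1 value was not tested. Other members known to respond to interferon did not share the size of the XAF1 difference. MLKL, the executioner of necroptosis, read 8.06 on the cMyc shRNA array and 8.37 on the control array, BAK1 had a difference of -0.41 and PMAIP1 one of 0.19. Further genes of the same list, among them TNFSF10, CASP1, CASP8 and FAS, were not analysed here.

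**Figure D2:**
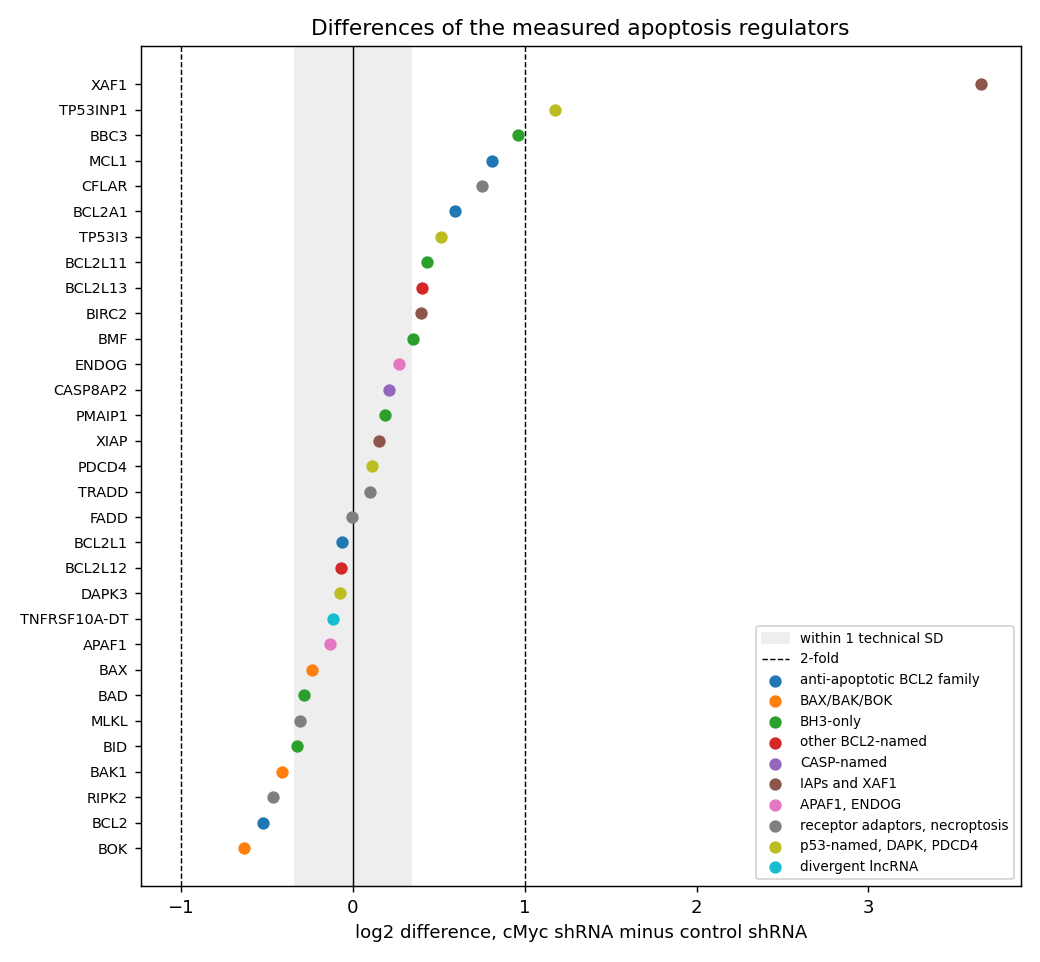
Log2 differences, cMyc shRNA minus control shRNA, of the 31 measured apoptosis regulators in order of size and coloured by role. XAF1 stands alone at 3.65, TP53INP1 is the other gene past the dashed 2-fold line, and 16 genes lie in the grey band of 1 technical SD (0.34) around 0.

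Among the anti-apoptotic members of the BCL2 family the arrays differed in both directions. MCL1, a short-lived guardian of the outer mitochondrial membrane, read 9.67 on the cMyc shRNA array and 8.86 on the control array, a difference of 0.81, or 1.75-fold higher. BCL2A1, a target of NF-kB, read 6.17 on the cMyc shRNA array and 5.58 on the control array, 1.51-fold higher. The founding member of the family went the other way. BCL2 read 4.89 on the cMyc shRNA array and 5.42 on the control array, a difference of -0.52. BCL2L1, which encodes BCL-XL, differed by -0.06, and BCL2L10 was below the level filter. Of these 4 measured genes 0 passed 2-fold, and their median was 0.27.

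The 3 pore-forming type members read lower on the cMyc shRNA array by amounts under 2-fold, and 51.3% of all measured genes lay below 0. BOK, a relative of BAX and BAK1, read 6.29 on the cMyc shRNA array and 6.93 on the control array, a difference of -0.63, or 1.55-fold lower. No other member had a lower difference, and 1065 of the 10258 measured genes were as low or lower. BAK1 read 7.29 on the cMyc shRNA array and 7.70 on the control array, a difference of -0.41. BAX read 8.03 on the cMyc shRNA array and 8.26 on the control array, and its difference of -0.23 was smaller than the technical SD.

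The BH3-only genes split. BBC3 (PUMA), a p53 target that binds all the anti-apoptotic members, read 6.67 on the cMyc shRNA array and 5.71 on the control array, a difference of 0.96, or 1.95-fold higher. A difference that high or higher was read for 226 of the 10258 measured genes. BCL2L11 (BIM) read 4.95 on the cMyc shRNA array and 4.52 on the control array, a difference of 0.43. BMF, whose protein is tethered to the cytoskeleton in healthy cells, had a difference of 0.35 from the brighter of its probe sets and of -0.06 from the other, which read below the level filter. PMAIP1 (NOXA), the partner that targets MCL1 for degradation, differed by 0.19. On the negative side were BAD, whose activity is set by phosphorylation, at -0.29, and BID, which caspase-8 cleaves to link the receptor route to mitochondria, at -0.32. BIK was below the level filter. Of the 6 measured genes, 0 passed 2-fold, 4 were above 0, and 3 of these by more than the technical SD. Over all measured genes, 48.5% were above 0 and 20.1% were higher by more than the technical SD.

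Among the members named after BCL2 whose roles are less settled, BCL2L13, a mitochondrial protein with a part in mitophagy, read 6.90 on the cMyc shRNA array and 6.50 on the control array, a difference of 0.40. BCL2L12 differed by -0.07, and BCL2L14 and BCL2L15 were below the level filter. Over the 15 measured genes of the BCL2 family and its namesakes, the median was -0.06, with 7 above 0 and 8 below, a split close to the one over all measured genes (48.5% above 0).

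Downstream of mitochondria, APAF1, the scaffold of the apoptosome, differed by -0.13 and ENDOG, a mitochondrial nuclease, by 0.27. In the receptor route, CFLAR, the inhibitor of caspase-8 activation, read 5.67 on the cMyc shRNA array and 4.91 on the control array, a difference of 0.75, or 1.69-fold higher. The adaptors beside it were nearly level. The brighter FADD probe set read 7.59 on the cMyc shRNA array and 7.60 on the control array, and the other gave a difference of -0.22. TRADD, the adaptor of TNF receptor 1, differed by 0.10 and CASP8AP2 by 0.21. RIPK2, a kinase of NOD receptor signalling, read 6.22 on the cMyc shRNA array and 6.68 on the control array, a difference of -0.46. MLKL differed by -0.31, and RIPK3, the kinase that activates it, was below the level filter. TNFRSF10A-DT had a difference of -0.11 from the brighter probe set and of 0.19 from the dimmer one, which read below the level filter. The annotation names both for this noncoding RNA and not for the receptor gene, and their strands were not checked.

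Of the remaining members, TP53INP1, a p53-induced nuclear protein with a part in autophagy and cell death, was the second to pass 2-fold. It read 7.84 on the cMyc shRNA array and 6.67 on the control array (probe set 17079317), a difference of 1.18, or 2.26-fold higher, and 135 of the 10258 measured genes were that high or higher. TP53I3 (PIG3), a p53-induced oxidoreductase, read 8.67 on the cMyc shRNA array and 8.16 on the control array, a difference of 0.51. PDCD4, an inhibitor of translation initiation, differed by 0.11 and DAPK3, a death-associated kinase, by -0.07. Its relative DAPK1 was below the level filter.

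**Figure D3:**
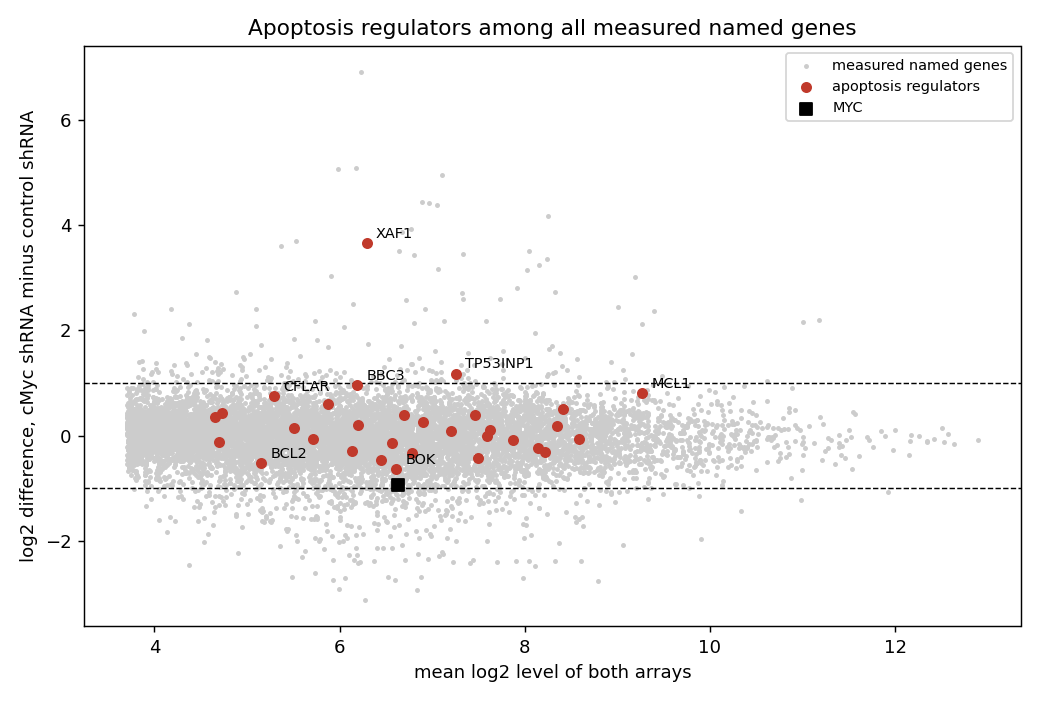
Log2 difference, cMyc shRNA minus control shRNA (vertical axis), against the mean log2 level of both arrays for the 10258 measured named genes (grey), with the 31 measured apoptosis regulators (red) and MYC (black square). Dashed lines mark 2-fold. XAF1 lies outside the bulk of the genes, TP53INP1, BBC3, MCL1 and CFLAR lie near its upper edge and BOK and BCL2 lie within its lower part.

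The 7 members below the level filter were BCL2L10, BIK, BCL2L14, BCL2L15, CASP12, RIPK3 and DAPK1. Their values lay between 2.18 and 3.55, where no detection call is available. Their differences ran from -0.41 for BCL2L10 to 0.59 for BCL2L15. BCL2L10, the closest of these to the filter, had a mean of 3.34, and BMF, the lowest of the measured members, one of 4.66.

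Genes that act beside these regulators, outside the 38, were counted in the same way. Over all measured genes, 2.01% were higher by 2-fold or more and 4.00% lower by that much. Of 19 listed p53 targets 8 had a named probe set, all 8 were measured and 0 passed 2-fold, with a median of 0.15. SESN2, a stress sensor that restrains mTORC1, was highest at 0.94 and POLK, a DNA polymerase of damage bypass, next at 0.78, while CCNG1 (-0.35) and SESN1 (-0.25) were lowest. CDKN1A and MDM2 were not analysed here. Of 26 genes of TNF and NF-kB signalling 16 had a named probe set, all 16 were measured and 0 passed 2-fold, with a median of 0.13. NFKB2 and RBCK1, a subunit of the linear ubiquitin ligase, were highest at 0.55 each, and TAB2 (-0.72) and TRAF1 (-0.34) lowest.

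Of 18 listed death substrates and sensors 12 had a named probe set and 11 were measured, with a median of -0.16. Of the measured genes 9 lay within 2-fold, 1 passed it upwards and 1 downwards. Over all measured genes, 2.01% passed it upwards and 4.00% downwards. AIM2, a cytosolic DNA sensor that activates caspase-1 and is itself interferon-inducible, read 7.42 on the cMyc shRNA array and 4.39 on the control array, 8.18-fold higher. Its adaptor PYCARD differed by 0.34. PARP1, a DNA repair enzyme that caspases cleave, read 7.27 on the cMyc shRNA array and 8.42 on the control array, 2.21-fold lower, and the mitochondrial channel gene VDAC1 differed by -0.60.

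Among 11 stress-route genes 8 had a named probe set and all 8 were measured, with a median of -0.08. EIF2AK2 (PKR), an interferon-inducible kinase activated by double-stranded RNA, was 4.35-fold higher and ERN1 next at 0.46. MAPK9 (-0.40) and TRIB3 (-0.37) were lowest. In the list of AKT and PIM kinases and further BIRC genes 8 of 9 had a named probe set and all 8 were measured, with a median of -0.17. BIRC5 (survivin), which also serves in mitosis as a subunit of the chromosomal passenger complex, read 5.02 on the cMyc shRNA array and 7.42 on the control array, a difference of -2.40, or 5.29-fold lower. AKT1 differed by -0.82, PIM2 by 0.49 and BIRC6 by 0.28. BIRC2, at 0.40, lay above 0 by little more than the technical SD of 0.34. BIRC6, XIAP (0.16) and BIRC7 (0.03) lay within that SD of 0.

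**Figure D4:**
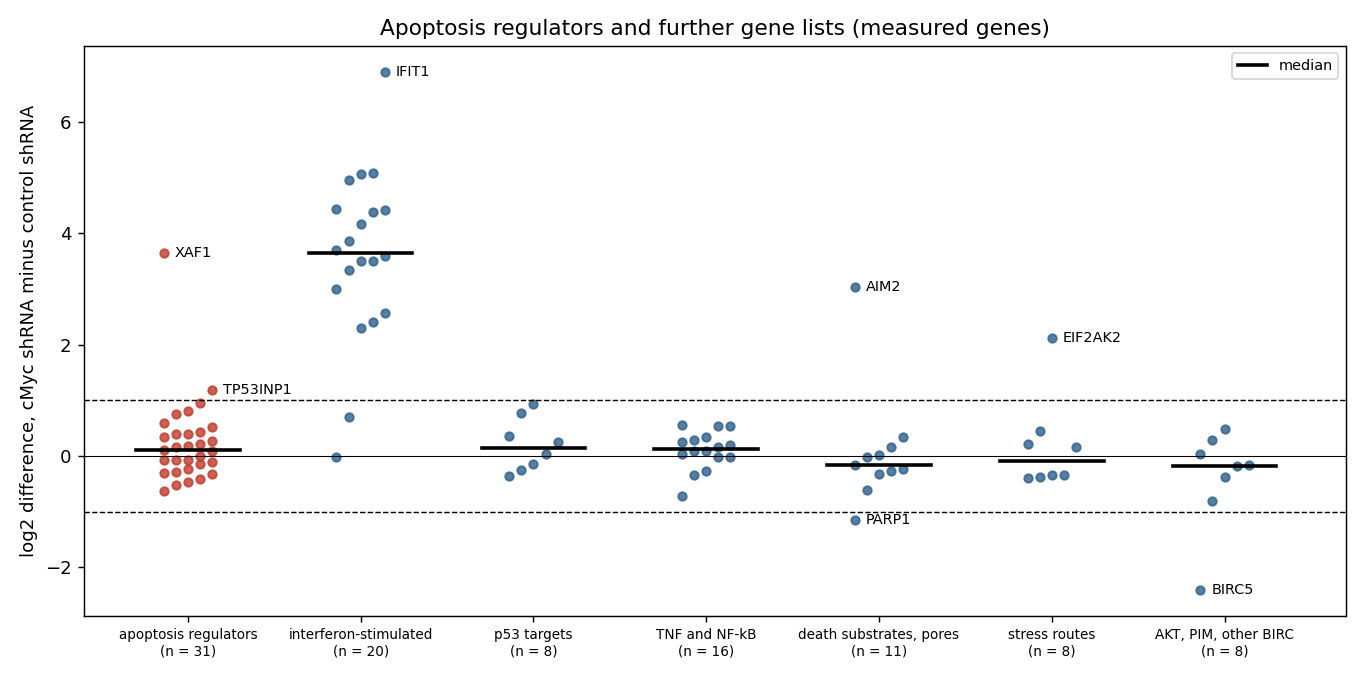
Log2 differences, cMyc shRNA minus control shRNA, of the measured apoptosis regulators (red) and of 6 further gene lists (blue), with medians as black bars and dashed lines at 2-fold. The interferon-stimulated list has its median at 3.65, and some of its genes passed the level filter only through the cMyc shRNA array. The other lists have theirs between -0.17 and 0.15, with single genes such as XAF1, AIM2, EIF2AK2 and BIRC5 far from their lists.

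The motifs were counted over RefSeq windows of 300 bases, of which 29 members had at least 1 and 48 in all. The response element form, GAAA, any 2 bases and GAAA, searched on both strands, was found in the windows of BBC3, BCL2A1 and BCL2L14, or 6.25% of the 48 windows, and in 3.57% of all 35116 windows. By gene these were 3 of the 29 members (10.3%), against 4.38% of all genes with a window. In BBC3 the capitals near the 3′ end are 2 overlapping matches, at bases 26 to 35 and 32 to 41 after the start. The XAF1 windows held no match to these letters, which says only that the letters are not in these windows. The shorter AANNGAAA, added after the values were seen and contained in the longer motif, was found in 17 of the 48 windows (35.4%) and in 22.8% of all windows. By gene, 15 of the 29 members (51.7%) had it in at least 1 window, as did 26.7% of all genes with a window, and genes differ in how many windows they have. The members with it did not share a direction, with log2 differences from -0.63 for BOK to 3.65 for XAF1. The XAF1 window printed above held 3 matches, at bases -31 to -24, -4 to 4 and 8 to 15 from the start.

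By gene, CACGTG was found in 3 of the 29 members (10.3%), BAX, BBC3 and BID, and in 8.77% of all genes with a window. By window it was found in 4 of the 48 (8.33%), 2 of them overlapping BID windows that hold the same site, and in 7.26% of all windows. The BAX window held 4 matches, at bases -138, -93, -45 and -14 from the start, the BID window printed above held 1, at -47, and the BBC3 window 1, at -232. The 3 genes with this motif did not share a direction, with log2 differences of -0.23 for BAX, -0.32 for BID and 0.96 for BBC3. A match is a description of the letters and does not show that a factor binds there.

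Not all listed markers of cell types had a named probe set, and a marker without one need not be low. Of 8 haematopoietic markers 5 were named and 2 measured, CD68 with a difference of 0.91 and SPI1 with -0.08. CD68 read 11.3 on the cMyc shRNA array and 10.4 on the control array. Of 5 endothelial markers 3 were named and 0 measured. Of 8 epithelial markers 7 were named and 4 measured, between -0.69 (KRT18) and 0.53 (CLDN7). KRT18 read 8.41 on the cMyc shRNA array and 9.09 on the control array. Of 5 muscle markers 3 were named and 2 measured, DES (1.23) and MYOG (-0.05). Of 9 mesenchymal markers, those of the labelled cell type, 4 were named and 3 measured. These were FN1, VIM and THY1, with log2 differences of 0.15, -0.59 and 0.36. The part of these markers in the differences above was not tested.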

How the data were processed

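Total RNA of 2 samples was measured, 1 per condition. The values of 53617 probe sets were deposited as log2 levels (1.41 to 13.9), the base being inferred from that range. Per the submitters' processing notes they were made with Affymetrix Expression Console. The version and settings, normalization included, are not stated there. The medians were 3.73 on the cMyc shRNA array and 3.68 on the control array. GEO's platform annotation gave 1 symbol to each of 16098 probe sets, 0 had several and 37519 were unnamed here. All 38 members were found by Entrez identifier in RefSeq (GRCh38.p14) under the same symbol.

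Differences, counts and medians were computed with Python 3.11.15, numpy 2.4.6 and pandas 2.3.3, and loess with statsmodels 0.14.6. No test was possible without replicates. The number of arrays limits the precision, and no depth applies to intensities. The 2-fold counting was tested on simulated data with a single probe set per gene, and the motif search on made sequences. The technical SD, the medians and the ranks were not tested in this way. Every member was accounted for. Members at least 1.5-fold apart were given with both values, and of each further list the 2 highest, the 2 lowest and those past 2-fold were named. The members and lists were chosen with earlier results of these data known. The alternatives were 3 other scalings, 2 level filters, another probe set rule and 2 other rules of size, and 3 more were added after seeing the data: MYC under the scalings, the median without XAF1, and the shorter motif.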

Additional observations from a re-analysis of the deposited data

How the results depend on the processing

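The direction and size of the member differences depended little on the scaling. Of 124 values of single members under centring, quantile normalization, loess and the mean over probe sets, all 124 moved by less than 0.34, by at most 0.20. Part of this was fixed in advance. Centring moves every member by the same amount. Quantile normalization could move no difference by more than 0.12, the largest gap between the sorted values of the arrays. The mean over probe sets can change only the 3 members with several probe sets. The largest shift was that of BMF under the latter rule, from 0.35 to 0.14. This rule left 29 members measured, as BMF and TNFRSF10A-DT fell below the level filter. Their values under it are still among the 124. XAF1 stayed between 3.61 and 3.67, TP53INP1 between 1.13 and 1.22, and MYC, an alternative added after seeing the data, between -0.98 and -0.87. FADD (-0.11 to 0.02) and TNFRSF10A-DT (-0.16 to 0.04), both near 0, changed sign. BBC3 lay on the edge of the 2-fold rule, at 0.92 after centring and 1.02 after quantile normalization. After the latter 3 members were at least 2-fold higher, as were 2.22% of all measured genes. The count of higher members was 2 under the other scalings, the level filters and the mean over probe sets, and the count of lower members was 0. Over all measured genes, these settings gave 1.53% to 2.09% higher and 2.83% to 5.17% lower. The rule of size changed the counts by construction. At 1.5-fold 6 members were higher and 1 lower, against 8.77% and 11.9% of all measured genes. Beyond 3 local robust SDs 1 member, XAF1, was higher and 0 were lower, against 1.08% and 1.84% of all measured genes. The member median ranged from 0.05 with no level filter to 0.16 after quantile normalization, and was 0.11 without XAF1. No paired analysis was possible because the result comes from no test, with 1 array per group. Having 2 arrays and no detection calls limits every value.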
